A study of Mus musculus with 31 samples.

Results

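Mouse embryonic fibroblasts on the way to induced pluripotency were followed here through the genes that make nucleotides and the serine, glycine and folate units that feed them. The genes came from a written list of 34 symbols, of which 33 were measured among 19938 genes with a single symbol on the arrays, and Impdh2 was not analysed here. Each gene rests on 1 probe set, except that Tk1 had 2, of which the brighter was used. The tested cells, called 4F, were fibroblasts given viruses that carry Oct4, Sox2 and Klf4 together with c-Myc at day 0 and harvested on days 1, 2, 3, 4, 5, 6 and 8 with 2 arrays each and on days 10 and 12 with 1 array each. The 3F cells received Oct4, Sox2 and Klf4 without c-Myc and were harvested on days 3, 5, 8 and 12 with 1 array each. The GFP cells received a GFP retrovirus as a virus control and were harvested on days 1, 3, 5 and 8 with 2 arrays each and on day 12 with 1 array. Uninfected fibroblasts of day 0 gave 2 arrays, which are titled 4F but labelled with no retrovirus. All 31 samples were bulk cultures of one labelled cell type. The labels name no strain, embryo age or clone and no sorting of infected cells.

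Cells make purines by building the ring step by step on phosphoribosyl pyrophosphate (PRPP), and pyrimidines by making the ring first and then joining it to PRPP. Purine ring assembly takes glycine and formyl groups from folate, thymidylate synthesis takes a methylene group from folate, and both supplies trace back to serine. Ribonucleotide reductase and the salvage kinases turn ribonucleotides and nucleosides into the deoxynucleotides used in DNA replication. Dividing cells draw heavily on these routes, and c-Myc and E2F factors are well known regulators of many of the genes.

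Signals are log2 values as deposited, and a difference of 1 is a doubling of the signal. Several features of the arrays bear on every value. The 12 arrays numbered replicate 1 had 120 ng of input RNA and the remaining 19 had 300 ng, and all 3F arrays belong to a set of 7 without a replicate number, so on days 3, 5 and 8 the labelling set and the absence of c-Myc cannot be told apart. For 3F, the labels contradict themselves, since the source field counts 4 factors while listing 3 without c-Myc, and the titles were followed. Pou5f1, the Oct4 gene, read 6.05 to 9.93 in 4F, 6.30 to 10.20 in 3F, 5.22 to 5.60 in GFP and 5.23 and 5.66 on day 0. The Myc row read 6.37 to 8.5 in 4F, 7.95 to 9.37 in 3F, 6.58 to 9.72 in GFP and 9.58 and 9.70 on day 0, so it gives no check of which cells received c-Myc. Sox2 read 5.74 to 9.48 in 4F, 5.86 to 9.20 in 3F, 5.31 to 5.57 in GFP and 5.66 and 5.975 on day 0. Klf4, given to 4F and 3F, read 6.65 to 7.61 in 4F and 7.55 to 8.49 in 3F. In GFP it read 7.67 to 8.15, and on day 0 8.02 and 7.50. Klf4 was lower in 4F than in GFP on day 8 and than in 3F (-0.92 and -0.70, limma adjusted p = 0.0136 and 0.0268). It gives no check of its virus either. The mean signal of 11 fibroblast markers was 8.98 to 10.11 in 4F, 9.99 to 10.70 in 3F, 10.12 to 12.19 in GFP and 9.76 and 9.88 on day 0. That of 8 pluripotency markers was at most 6.31 on any array of 4F up to day 5 and reached 8.60 in 4F on day 12 and 8.71 in 3F on day 12, against at most 5.86 in GFP. In such bulk cultures, fewer cells of a type and less RNA per cell cannot be told apart.

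Promoter sequences are shown for 4 members because c-Myc, added in 4F and not in 3F, is known to bind the letters CACGTG (an E-box). Ppat among them gave the highest day 8 difference of 4F over GFP of all members, and Paics, which starts beside it, a smaller one. The sequences run from 250 bases before to 50 bases after the annotated start in RefSeq on GRCm38.p6, which held a promoter for 32 of the 34 listed symbols. Capitals mark CACGTG, or the E2F letters TTTCGCGC, TTTGGCGC, TTTCCCGC and TTTGGCGG read on either strand. Ppat lies at chr5:76951529-76951828, minus strand, and Paics at chr5:76951052-76951351, plus strand. Their annotated starts stand 276 bases apart on opposite strands. Atic lies at chr1:71556906-71557205, plus strand, and Tyms at chr5:30073576-30073875, minus strand.
Ppat: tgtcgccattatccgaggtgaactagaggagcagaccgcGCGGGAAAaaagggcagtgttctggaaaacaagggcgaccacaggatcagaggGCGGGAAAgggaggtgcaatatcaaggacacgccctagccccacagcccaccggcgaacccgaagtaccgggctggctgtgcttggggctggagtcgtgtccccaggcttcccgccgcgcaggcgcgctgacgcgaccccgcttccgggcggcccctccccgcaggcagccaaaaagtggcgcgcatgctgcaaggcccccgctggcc
Paics: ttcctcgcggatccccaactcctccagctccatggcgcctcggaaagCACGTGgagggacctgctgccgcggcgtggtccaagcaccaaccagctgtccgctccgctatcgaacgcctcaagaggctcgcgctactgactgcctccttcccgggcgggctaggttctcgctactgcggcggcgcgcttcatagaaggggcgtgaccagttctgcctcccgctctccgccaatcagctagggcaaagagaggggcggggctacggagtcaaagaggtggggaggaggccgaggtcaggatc
Atic: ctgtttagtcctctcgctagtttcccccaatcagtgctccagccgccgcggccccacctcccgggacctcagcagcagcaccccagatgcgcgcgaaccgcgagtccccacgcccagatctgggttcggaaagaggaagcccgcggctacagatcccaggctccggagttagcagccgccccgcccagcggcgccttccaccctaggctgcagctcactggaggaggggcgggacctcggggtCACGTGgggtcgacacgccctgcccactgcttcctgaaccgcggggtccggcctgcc
Tyms: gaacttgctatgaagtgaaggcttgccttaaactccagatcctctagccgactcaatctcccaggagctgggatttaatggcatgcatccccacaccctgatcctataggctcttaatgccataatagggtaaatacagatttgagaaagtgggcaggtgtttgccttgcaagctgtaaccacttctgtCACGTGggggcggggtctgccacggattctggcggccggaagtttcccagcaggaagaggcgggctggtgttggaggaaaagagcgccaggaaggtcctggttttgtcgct
CACGTG was found in 5 of the 32 genes (15.6%), each counted once over its annotated starts, against 8.09% of all 27025 genes with a promoter in the same table. An E2F motif was found in 2 (6.2%), Prps2 and Ppat, against 2.7% of all genes, and the Ppat window holds 2 copies of TTTCCCGC read on the opposite strand. CCAAT was found in 15 (46.9%, against 41.06%), and TGATGNAAT, the letters bound by ATF4 in its amino acid response, in 0 (against 1.08%). Both strands were searched, and no match in the 4 windows shown overlaps another. These counts describe letters in a window and not binding.

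**Figure D1:**
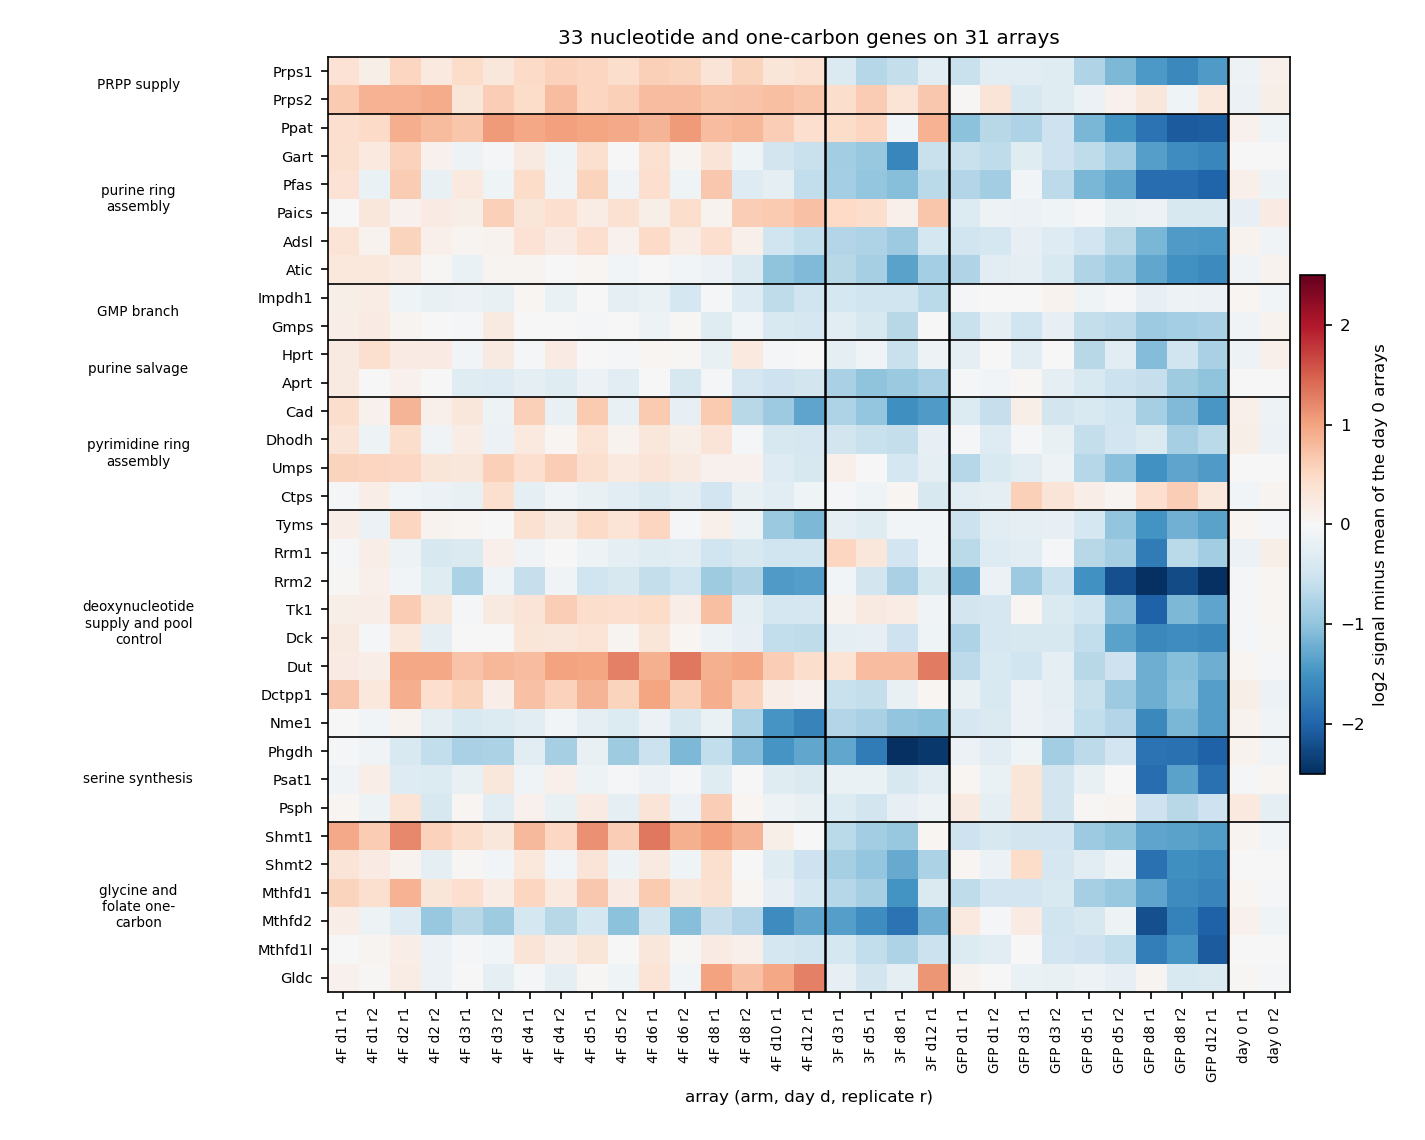
Log2 signal of each of the 33 genes (rows, grouped by role) on each of the 31 arrays (columns, by arm, day and replicate), minus the gene's mean on the 2 uninfected day 0 arrays. Colours stop at 2.5 either way. Most rows stay near the day 0 level in 4F up to day 8, turn blue in GFP by day 8, and Ctps stays above the day 0 level in GFP from day 3 on.

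One day after infection, 10 of the 33 genes were higher in 4F than in GFP (limma adjusted p under 0.05) and no member was lower, where 1.42% of all genes were called higher and 0.391% lower. They were Prps1, Ppat, Gart, Adsl, Atic, Gmps, Umps, Dut, Shmt1 and Mthfd1. Of the 10, 4 belong to purine ring assembly, 1 to the GMP branch and 1, Prps1, to PRPP supply. The median difference over the 33 members was 0.58, against -0.02 over all genes. It was 0.63 within the 120 ng set and 0.40 within the 300 ng set. Shmt1, the cytosolic enzyme that passes a carbon from serine to folate, read 8.34 and 8.02 in 4F and 6.87 and 6.99 in GFP, a difference of 1.25 ± 0.20 (log2 difference ± SE, 2 arrays per arm, adjusted p = 0.00724). Umps, which completes UMP, read 9.95 and 9.92 in 4F and 8.67 and 9.01 in GFP (1.09 ± 0.14, adjusted p = 0.00178). Both genes had every 4F array above every GFP array, and on day 0 Shmt1 read 7.46 and 7.32 and Umps 9.40 and 9.38, between the arms. Mthfd1, the cytosolic enzyme that interconverts folate carbon units, read 9.98 and 9.82 in 4F and 8.78 and 8.94 in GFP (1.04 ± 0.20, adjusted p = 0.0162). The count was 2 without 4F replicate 1, 3 without 4F replicate 2, 2 without GFP replicate 1 and 8 without GFP replicate 2, and Ppat and Umps passed in each of these. Of 21 measured proliferation genes (DNA replication and mitosis), 3 were higher on the same day, with a median of 0.61. Their part in the result was not tested.

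The 6 enzymes of purine ring assembly were all higher in 4F by day 8. Ppat, which commits PRPP to the purine ring, read 9.99 and 10.04 in 4F and 7.36 and 7.14 in GFP, against 9.31 and 9.12 on day 0. The 16 4F arrays ranged from 9.63 to 10.28 around a median of 10.05, with no overlap with the 9 GFP arrays, which ranged from 7.14 to 8.69 around 8.07. The day 8 difference was 2.77 ± 0.15, or 6.80-fold (adjusted p = 3.08e-08). Pfas, which adds the amide nitrogen, read 9.35 and 8.35 in 4F and 6.76 on both arrays in GFP (2.08 ± 0.35, adjusted p = 0.000332). Gart, which catalyses several ring steps including a formyl transfer from folate, read 10.15 and 9.73 in 4F and 8.45 and 8.28 in GFP (1.57 ± 0.19, adjusted p = 1.57e-05). For Gart, 4F stayed on day 8 around its day 0 signals of 9.83 and 9.84 and GFP fell below them by 1.47 ± 0.19 (adjusted p = 5.76e-05). Adsl, which releases fumarate in the ring and AMP steps, differed by 1.55 ± 0.16, and Atic, which closes the ring, by 1.15 ± 0.14 (adjusted p = 4.8e-06 and 1.99e-05). Paics, whose start lies beside that of Ppat, differed by less between the arms than its neighbour. It read 11.70 and 12.23 in 4F and 11.47 and 11.21 in GFP on day 8 (0.62 ± 0.19, adjusted p = 0.0244), and its call was lost without 4F replicate 2 or GFP replicate 2 (adjusted p = 0.263 and 0.161).

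**Figure D2:**
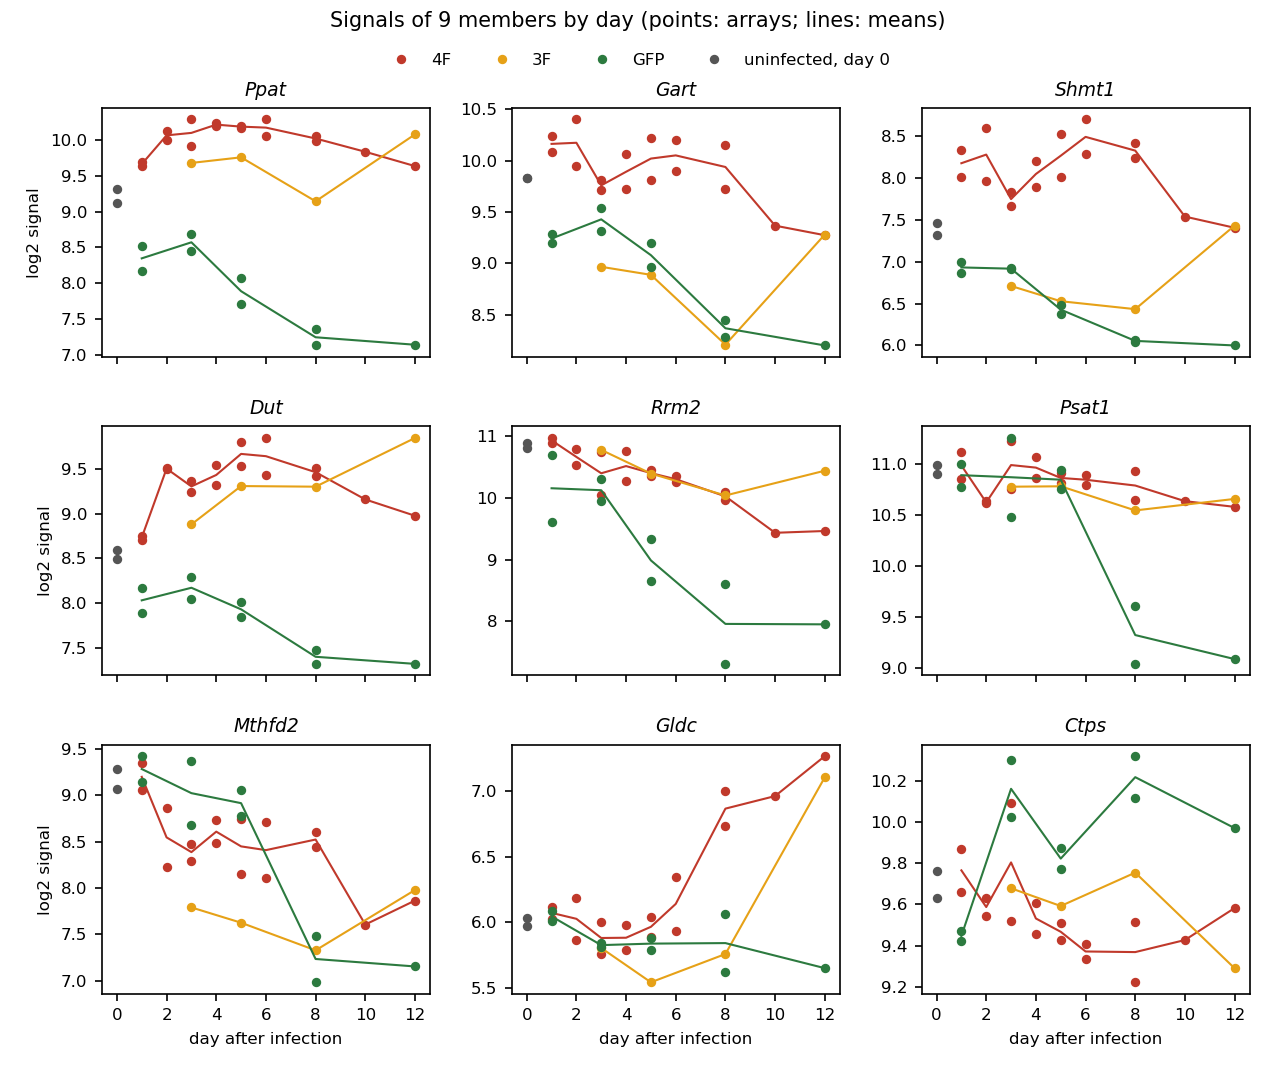
Log2 signal (vertical axes, each with its own range) against day after infection for 9 genes, with a point per array and lines through the means of 4F, 3F and GFP. Ppat, Shmt1 and Dut separate 4F from GFP from day 1, Psat1 and Mthfd2 drop in GFP between days 5 and 8, Gldc climbs late in 4F and 3F, and Ctps is higher in GFP on day 8.

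PRPP supply and the GMP branch each held a pair of measured genes whose values differed in course, and the contrast within each pair was not tested. Prps1, an X-linked PRPP synthetase, read 10.19 and 10.41 in 4F and 8.43 and 8.25 in GFP on day 8 (1.96 ± 0.14, adjusted p = 2.64e-07), with 9.74 and 9.99 on day 0. Prps2, the related synthetase, read 8.36 and 8.37 in 4F and 7.93 and 7.55 in GFP (0.62 ± 0.15, adjusted p = 0.00657), with 7.51 and 7.79 on day 0. GFP therefore stood 1.52 ± 0.14 below day 0 for Prps1 (adjusted p = 5.89e-06) but 0.09 ± 0.15 above it for Prps2 (adjusted p = 0.785). Gmps, which makes GMP from XMP, was higher in 4F on day 8 by 0.70 ± 0.12 (adjusted p = 0.000536). Impdh1, which makes XMP, read 7.93 and 7.66 in 4F and 7.77 and 7.86 in GFP, overlapping, with a difference of -0.02 ± 0.11 (adjusted p = 0.922). The salvage enzymes differed by 0.82 ± 0.20 for Hprt, which recovers hypoxanthine and guanine, and 0.50 ± 0.15 for Aprt, which recovers adenine (adjusted p = 0.00523 and 0.0237).

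Pyrimidine ring assembly split by gene. Umps on day 8 read 9.51 and 9.49 in 4F and 7.88 and 8.08 in GFP (1.52 ± 0.14, adjusted p = 1.71e-06). Cad, which carries out the opening steps of the pathway, read 9.46 and 8.10 in 4F and 7.97 and 7.70 in GFP. Its replicate 4F arrays lay further apart than the arms, and the difference of 0.95 ± 0.43 did not pass (adjusted p = 0.123), although it passed without 4F replicate 2 (1.63, adjusted p = 0.0135) and with the labelling set as a term (adjusted p = 0.00459). Ctps, which makes CTP from UTP, was the only member called lower in 4F than in GFP on day 8. It read 9.22 and 9.52 in 4F and 10.12 and 10.32 in GFP (-0.85 ± 0.16, adjusted p = 0.000699), with 9.63 and 9.76 on day 0. Dhodh, which oxidises dihydroorotate in mitochondria, differed by 0.74 ± 0.21 (adjusted p = 0.0156). On day 1 Ctps had read 9.66 and 9.87 in 4F and 9.42 and 9.47 in GFP, and the arm difference fell by 1.17 ± 0.22 between day 1 and day 8 (adjusted p = 0.00406).

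All 8 genes of deoxynucleotide supply and pool control were higher in 4F on day 8, with a median difference of 1.63. Rrm2, the small subunit of ribonucleotide reductase whose level follows S phase, read 9.96 and 10.09 in 4F and 7.31 and 8.61 in GFP (2.06 ± 0.38, adjusted p = 0.000753), against 10.81 and 10.89 on day 0. Rrm1, the large subunit, read 10.58 and 10.69 in 4F and 9.34 and 10.41 in GFP (0.76 ± 0.25, adjusted p = 0.0359), and did not pass without 4F replicate 1, 4F replicate 2 or GFP replicate 1 (adjusted p = 0.0877, 0.131 and 0.542). The GFP replicate 1 array was low for both subunits. Dut, which destroys dUTP, read 9.42 and 9.51 in 4F and 7.32 and 7.47 in GFP (2.07 ± 0.14, adjusted p = 1.6e-07), and all 16 4F arrays (8.71 to 9.85) lay above all 9 GFP arrays (7.32 to 8.29). Dctpp1, which hydrolyses dCTP and modified forms of it, differed by 1.86 ± 0.21 and Tk1, the S phase thymidine kinase, by 1.84 ± 0.31 (adjusted p = 1.02e-05 and 0.0003). The dimmer Tk1 probe set, a limit on that value, gave 0.89 on day 8 and 0.63 on day 1, against 1.84 and 0.59 for the one used. The one used was also low on GFP replicate 1 of day 8 (6.905, against 7.804 on replicate 2). Its day 8 difference was 2.775 within the 120 ng set and 0.909 within the 300 ng set. Dck, Tyms and Nme1, a deoxycytidine kinase, the thymidylate synthase and a nucleoside diphosphate kinase, differed by 1.41 ± 0.20, 1.34 ± 0.21 and 0.90 ± 0.18 (adjusted p at most 0.00137).

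Serine synthesis and the mitochondrial folate route were mostly called on day 8 alone. On day 8 all 3 serine genes were higher in 4F, with a median difference of 1.01, and on day 5 none of the 3 was called, with a median of 0.02. The change between day 1 and day 8 itself passed for Psat1 alone of the 3. Psat1, the aminotransferase of serine synthesis, read 10.64 and 10.94 in 4F and 9.04 and 9.60 in GFP on day 8 (1.47 ± 0.23, adjusted p = 0.000163). On day 5 it had read 10.82 and 10.91 in 4F and 10.75 and 10.94 in GFP, with the arms overlapping. Mthfd2, the mitochondrial methylene-folate dehydrogenase, read 8.60 and 8.44 in 4F and 6.98 and 7.48 in GFP on day 8 (1.29 ± 0.28, adjusted p = 0.00256), while on day 5 it had read 8.74 and 8.15 in 4F and 8.78 and 9.05 in GFP. Both GFP arrays lay above both 4F arrays on day 5, without a call (-0.47 ± 0.28, adjusted p = 0.299), as on day 3 (-0.64 ± 0.28, adjusted p = 0.174). In GFP its day 8 mean lay 1.68 below its day 5 mean, the lowest such change among the 33 members. Shmt2, the mitochondrial serine hydroxymethyltransferase, read 9.71 and 9.33 in 4F and 7.45 and 7.77 in GFP on day 8 (1.91 ± 0.24, adjusted p = 2.95e-05). Mthfd1l, which releases formate from mitochondria, read 8.62 and 8.54 in 4F and 6.69 and 6.94 in GFP (1.77 ± 0.15, adjusted p = 8.95e-07). Mthfd1l alone among these had also been called on day 5 (0.73 ± 0.15, adjusted p = 0.00273). In the cytosol, Shmt1 read 8.42 and 8.24 in 4F and 6.07 and 6.04 in GFP on day 8 (2.27 ± 0.20, adjusted p = 1.24e-06), and Mthfd1 differed by 1.67 ± 0.20 (adjusted p = 1.61e-05). These GFP signals of Shmt1 lay near the array medians (6.04 to 6.17), where a probe set may carry mostly background, so the difference is no exact fold. Phgdh, the entry enzyme of serine synthesis, differed by 1.01 ± 0.27 and Psph, its closing phosphatase, by 0.94 ± 0.30 (adjusted p = 0.0105 and 0.0281).

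Gldc, the decarboxylase of the glycine cleavage system, followed none of these courses. It read 5.75 to 6.34 on the 12 4F arrays of days 1 to 6, then 7.0 and 6.73 on day 8, 6.96 on day 10 and 7.27 on day 12. In 3F it read 5.80, 5.54 and 5.76 on days 3, 5 and 8 and 7.11 on day 12, while the 9 GFP arrays ranged from 5.62 to 6.08. The 4F arrays of day 8 lay above both GFP arrays of that day by 1.03 ± 0.16 (adjusted p = 0.000184) and above day 0 by 0.87 ± 0.16 (adjusted p = 0.00158). Its GFP and day 0 signals, at most 6.08, lay within or below the range of the array medians, so these differences too are no exact folds. Over the same 4F arrays the mean of the pluripotency markers was 6.97 and 8.12 on day 8, 8.59 on day 10 and 8.60 on day 12, and their part was not tested.

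**Figure D3:**
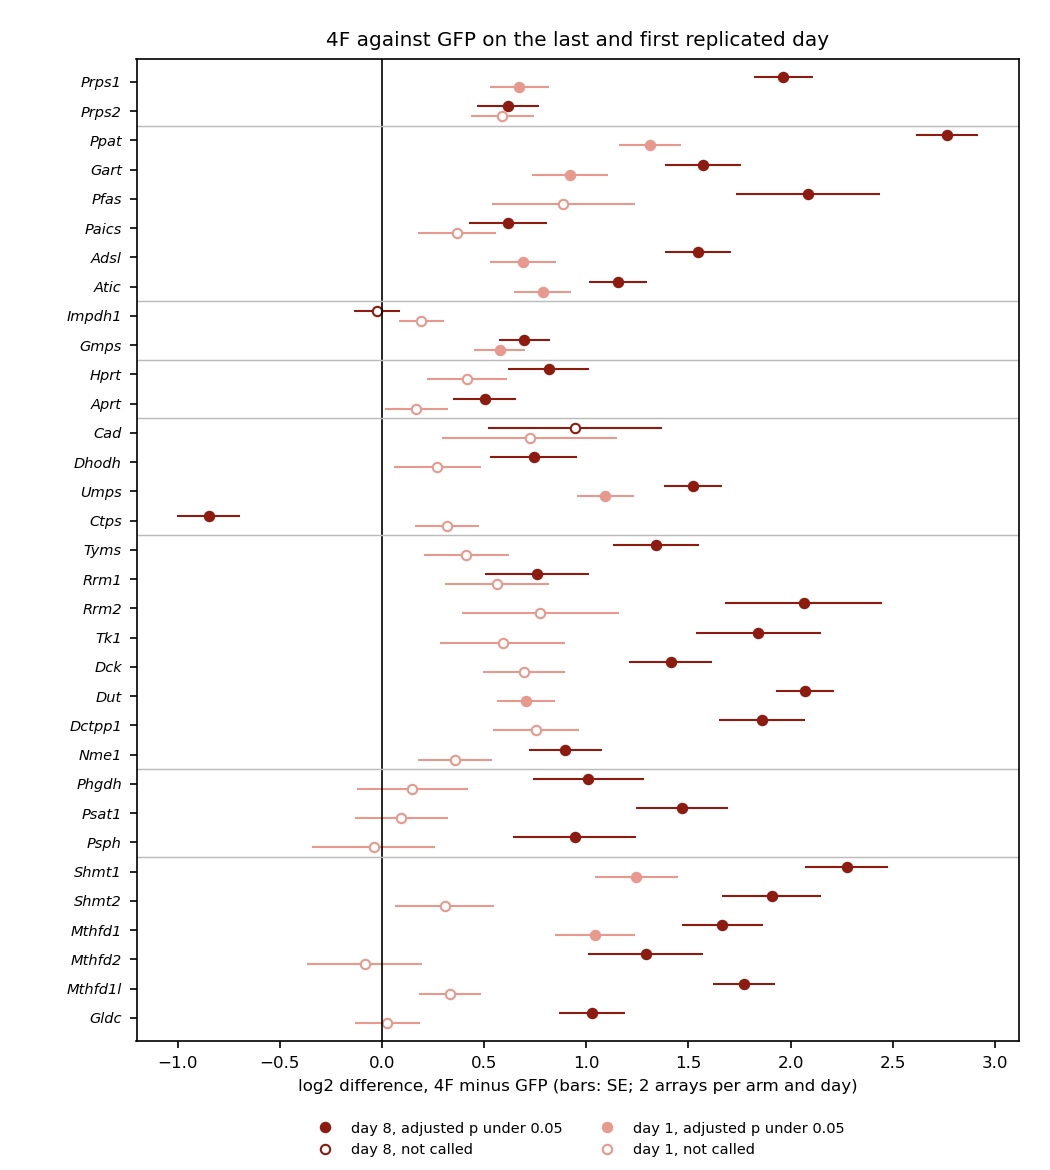
Log2 difference of 4F minus GFP for each gene on day 8 (dark) and day 1 (light), with SE bars from the fit and 2 arrays per arm and day. Filled points passed an adjusted p of 0.05 over all genes. Ctps alone lies clearly left of 0 on day 8, at -0.85.

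Counted by day, 8 members were higher in 4F than in GFP on day 3 (6.28% of all genes higher and 5.65% lower), 19 on day 5 (10.5% and 10.9%) and 30 on day 8 (14.5% and 13%). No member was lower on days 3 and 5, and 1 was lower on day 8. The day 3 count was 5 without 4F replicate 1 and 4 without GFP replicate 1. Median differences were 0.25, 0.73 and 1.34 on days 3, 5 and 8. Within the replicate 1 arrays they were 0.17, 0.83 and 1.56, and within the replicate 2 arrays 0.41, 0.63 and 1.11. On day 8, 31 members were above GFP in both sets. The day 8 calls of 8 members were lost on leaving out 1 array. They were Aprt, Dhodh, Rrm1, Phgdh and Psph without 4F replicate 1 (adjusted p = 0.0877 to 0.263), Paics, Hprt and Rrm1 without 4F replicate 2 (0.0703 to 0.263), Hprt, Rrm1 and Psph without GFP replicate 1 (0.0684 to 0.542), and Prps2, Paics, Aprt, Dhodh and Psph without GFP replicate 2 (0.0934 to 0.208). Averaged over days 1, 3, 5 and 8, 27 members were higher and 1 lower (18.8% and 18.7% of all genes). The arm difference itself was larger on day 8 than on day 1 for 11 members and smaller for 1 (3.92% and 4.57% of all genes), among them Shmt2 (1.60 ± 0.34), Ppat (1.45 ± 0.22), Mthfd1l (1.44 ± 0.22) and Psat1 (1.37 ± 0.32). That count of 12 was 7 when 4F replicate 2 of day 1 was left out, and also 7 when GFP replicate 1 of day 1 was. The proliferation list widened over the same days, with 20 of 21 genes higher on day 5 and 21 on day 8 and medians of 1.26 and 2.15, and its part in the members' result was not tested.

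Set against uninfected fibroblasts, the day 8 gap was mainly a lower signal in the GFP arm. On day 8, 25 members were lower in GFP than on day 0 (11.2% of all genes lower) and 1, Ctps, was higher (8.92% higher), with a median of -1.34. Rrm2 had fallen furthest, by 2.89 ± 0.38 (adjusted p = 8.55e-05), followed by Ppat (1.96 ± 0.15) and Mthfd2 (1.94 ± 0.28). In 4F on day 8, 7 members were higher than on day 0 (7.39% of all genes higher), with a median of 0.11 over all 33. They were Shmt1 (0.94 ± 0.20), Dut (0.93 ± 0.14), Gldc (0.87 ± 0.16), Ppat (0.80 ± 0.15), Dctpp1 (0.74 ± 0.21), Prps2 (0.71 ± 0.15) and Prps1 (0.44 ± 0.14), which lay at the threshold (adjusted p = 0.05). Phgdh alone was lower (-0.85 ± 0.27, adjusted p = 0.0457; 8.51% of all genes lower), and the count of 8 was 5 without either day 0 array. One day after infection, 1 member was higher in 4F than on day 0 (0.512% of all genes higher and 0.326% lower), Prps2, at 8.31 and 8.52 against 7.51 and 7.79, and 0 passed when any of the 4 arrays was left out, with 4 to 6 at an unadjusted p under 0.05. In GFP on day 1, limma called 0 members (0.0401% of all genes higher and 0.0502% lower), although 13 had an unadjusted p under 0.05, all lower, and the median was -0.40. With the labelling set as a term these counts were 2 and 4. The proliferation genes were lower in GFP on day 8 than on day 0 in 21 of 21 cases, with a median of -1.82, and in 4F 1 was higher, with a median of 0.23.

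**Figure D4:**
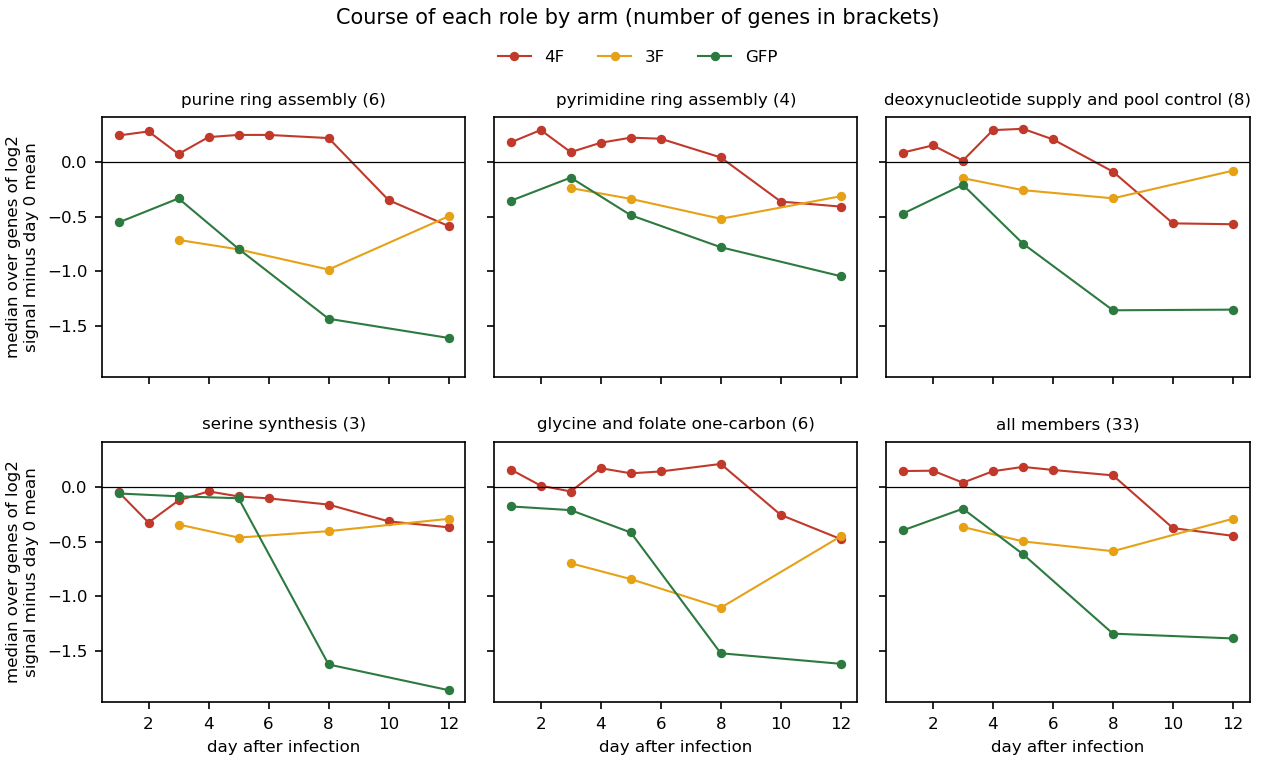
Median over the genes of each role of the log2 signal minus the day 0 mean, against day after infection, for 4F, 3F and GFP (lines join group means of 1 or 2 arrays). GFP falls away for all 6 panels by day 8, the median of the 3 serine genes only after day 5, and 4F lies lower on days 10 and 12 than on day 8.

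The 3F arm asks how much of this occurred without c-Myc. With days 3, 5, 8 and 12 fitted together, allowing for the day, 10 members were higher in 3F than in GFP and 3 were lower (9.47% and 8.82% of all genes). The higher ones were Prps2, Ppat, Paics, Umps, Tyms, Rrm1, Rrm2, Tk1, Dck and Dut. This difference pools days that were not alike. The median of 3F minus GFP was -0.21, 0.06, 0.38 and 1.08 on days 3, 5, 8 and 12, with 11, 18, 24 and 30 of the 33 members above GFP. The deoxynucleotide genes were above GFP in 6, 7, 8 and 8 of 8 cases on these days and the glycine and folate genes in 0, 2, 4 and 6 of 6, and the contrast between the groups of genes was not tested. Ppat read 9.68, 9.75, 9.14 and 10.07 in 3F on days 3, 5, 8 and 12, against 8.45 and 8.69, 8.07 and 7.71, 7.36 and 7.14, and 7.15 in GFP (1.89 ± 0.22, adjusted p = 4.8e-05). Dut read 8.88, 9.31, 9.30 and 9.85 in 3F, all above the GFP arrays (1.59 ± 0.21, adjusted p = 0.000109). The lower ones were Phgdh (-0.82 ± 0.23), Ctps (-0.46 ± 0.13) and Impdh1 (-0.43 ± 0.07). Leaving out 1 day ended the call of Ctps (days 3 and 12, adjusted p = 0.0687 and 0.0941), Phgdh (days 5 and 8, 0.0846 and 0.102), Tyms (days 8 and 12, 0.154 and 0.185) and Tk1 (days 8 and 12, 0.0736 and 0.0597). With the labelling set as a term 11 members passed, all higher, with Atic, Gmps, Dctpp1, Shmt1 and Mthfd1 gained. Prps2, Paics, Rrm1, Tk1, Impdh1, Ctps and Phgdh no longer passed. That fit leaves 3F to be compared through day 12 alone, where the median of 3F minus GFP was 1.08, so it does not speak for the earlier days. Of the proliferation genes 19 of 21 were higher in 3F, with a median of 1.07, and the 11 fibroblast markers were all lower. Their part was not tested.

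**Figure D5:**
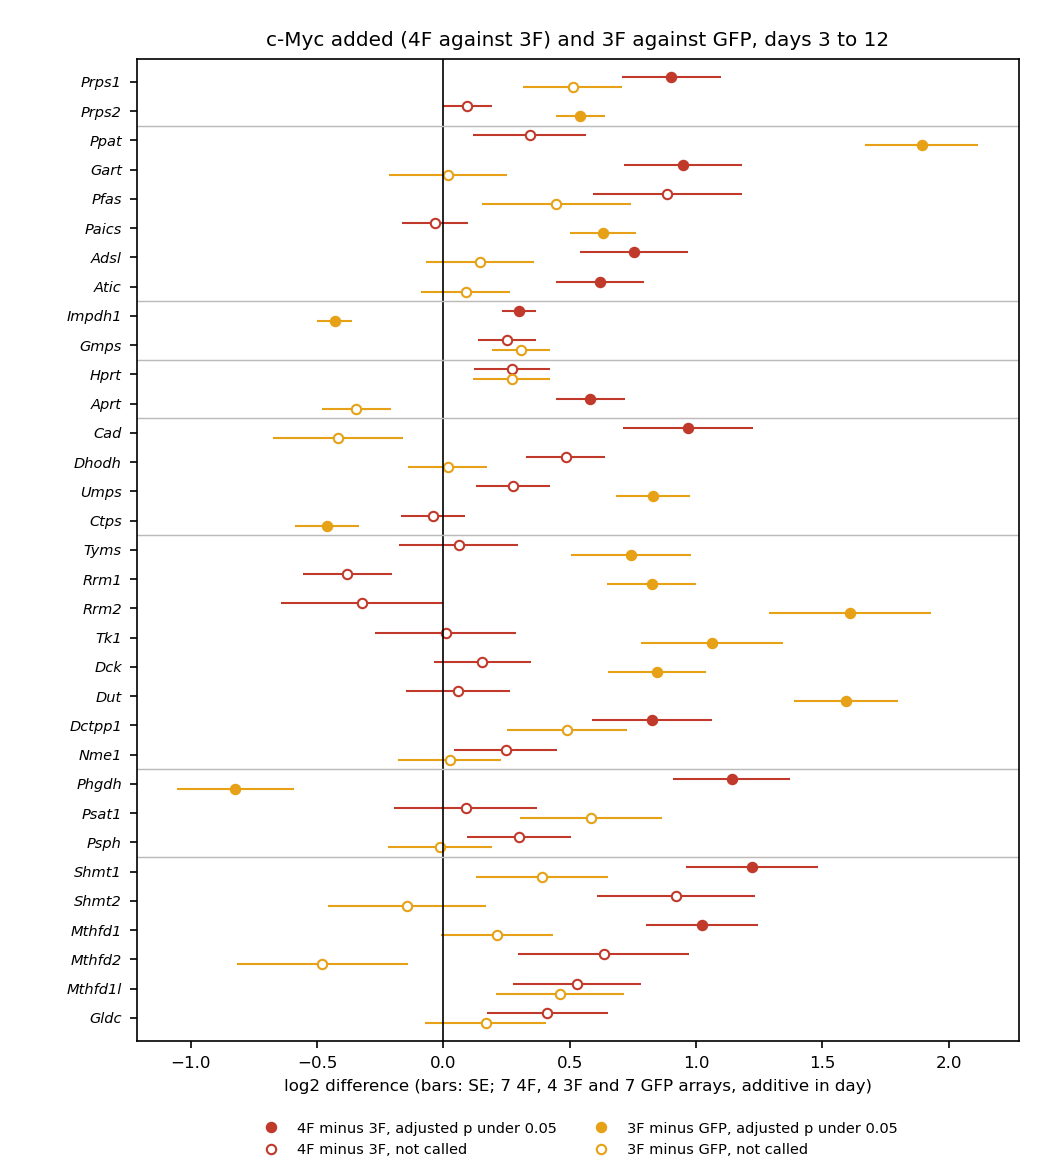
Log2 difference of 4F minus 3F (red) and of 3F minus GFP (orange) for each gene in the model of day and arm, with SE bars (7 4F, 4 3F and 7 GFP arrays). Filled points passed an adjusted p of 0.05 over all genes. Ppat, Dut and Rrm2 lie far right for 3F minus GFP, while Gart, Shmt1, Mthfd1, Cad and Phgdh lie right for 4F minus 3F. Both comparisons use the same 3F arrays.

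Between 4F and 3F, 11 members were higher in 4F and no member was called lower (3.87% and 5.77% of all genes). They were Prps1, Gart, Adsl, Atic, Impdh1, Aprt, Cad, Dctpp1, Phgdh, Shmt1 and Mthfd1. Shmt1 read 7.83 and 7.67 on day 3, 8.53 and 8.01 on day 5, 8.42 and 8.24 on day 8 and 7.41 on day 12 in 4F, against 6.71, 6.53, 6.43 and 7.43 in 3F (1.22 ± 0.26, adjusted p = 0.0118). Gart read 9.71 and 9.81, 10.22 and 9.81, 10.15 and 9.73, and 9.27 in 4F, against 8.96, 8.89, 8.21 and 9.28 in 3F (0.95 ± 0.23, adjusted p = 0.0223). For both genes every 4F array of days 3, 5 and 8 lay above every 3F array of those days, and on day 12 the arms met. Phgdh read 8.98 and 8.99, 9.59 and 8.90, 9.16 and 8.71, and 8.48 in 4F, against 8.47, 8.04, 7.14 and 7.37 in 3F (1.14 ± 0.23, adjusted p = 0.00935), and stayed 1.12 apart on day 12. Ppat (0.34 ± 0.22), Dut (0.06 ± 0.21), Rrm2 (-0.32 ± 0.32) and Tyms (0.06 ± 0.24) were not called, which does not show that they were alike. The count was 1, 0, 1 and 15 without the 3F array of day 3, 5, 8 and 12, with 14 at an unadjusted p under 0.05 where it was 0. With the labelling set as a term, which leaves 3F to be compared through day 12 alone, limma called 0, with 2 at an unadjusted p under 0.05, and on the 300 ng arrays alone it called 0, with 15 at an unadjusted p under 0.05 and a median of 0.36, against 0.34 on all arrays. Of the proliferation genes limma called 0 of 21, with 1 at an unadjusted p under 0.05 and a median of 0.40. The fibroblast markers were all called lower in 4F than in 3F except Pdgfra (-0.96 ± 0.29, adjusted p = 0.054). Their differences ran from -1.92 ± 0.39 for Lum to -0.60 ± 0.13 for Col6a1 (adjusted p = 0.00889 and 0.0117). The part of both lists was not tested.

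On day 12 the 4F arm no longer lay above the 3F arm for most members. The median of 4F minus 3F was 0.38, 0.51 and 0.70 on days 3, 5 and 8, with 30, 29 and 31 of 33 genes higher in 4F, and -0.06 on day 12, with 14 higher. Taken on the 300 ng arrays alone, the first 3 medians were 0.46, 0.50 and 0.64. Both arms had changed. Against day 8, 29 of 33 members were higher in 3F on day 12 (median 0.39), while in 4F day 10 was lower for 29 members (median -0.45) and day 12 for 30 (median -0.51). Against the 300 ng array of day 8 alone these medians were -0.31 and -0.41. In 4F, Cad had the lowest change on day 12 (-1.31) and Gldc the highest (0.40), and Paics was 0.39 higher. The GFP arm changed little after day 8, with a median of -0.08 on day 12. A contrast chosen after these values were seen, of the 4F minus 3F difference on day 12 against its mean on days 3, 5 and 8, was lower for 10 members and higher for 0 (2.14% and 1.04% of all genes). The 10 were Ppat, Gart, Adsl, Atic, Gmps, Tyms, Dut, Nme1, Shmt1 and Mthfd1, of which Shmt1 changed by -1.58 ± 0.32 (adjusted p = 0.0149) and Mthfd1 by -1.42 ± 0.31 (adjusted p = 0.0231). In all 10 the 3F array lay above the 4F array on day 12, which follows in part from how the 10 were picked. For Shmt1 and Mthfd1 the 4F minus 3F difference on that day was near 0 (-0.026 and -0.085). For Tyms the 4F minus 3F difference was -1.06 on day 12 and 0.34 before, for Dut -0.87 and 0.32, and for Nme1 -0.64 and 0.46, so the arms lay further apart on day 12 with the order turned. For Gmps it was -0.41 and 0.42, and for Gart -0.01 and 1.22. Of the 8 deoxynucleotide genes 1 was higher in 4F on day 12, with a median of -0.58. Day 12 had 1 array in each arm, and the fit assumed that it varied like the replicated groups. On day 12 both arms came from the unnumbered set, and on the earlier days 3F did and 4F did not, so the labelling set and the day cannot be told apart in this contrast. Tyms and Atic, both with CACGTG in the windows shown above, and Ppat, with none, were all among these 10. Paics, also shown with CACGTG, was not (0.07), and Nme1, with CACGTG in windows not shown, was. No link between the motif and this contrast was tested.

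Around these members, 53 further measured genes of the same pathways, such as transporters, catabolic enzymes and kinases, were called in both directions. In 4F against GFP, 5 were higher and 0 lower on day 1, 7 and 3 on day 3, 13 and 7 on day 5, and 16 and 8 on day 8, where 14.5% of all genes were higher and 13% lower and the median of the 53 was 0.23. The highest differences called on day 8 were those of Nt5e, which makes adenosine outside the cell (3.62 ± 0.32), Cth, which makes cysteine from cystathionine (3.06 ± 0.45), and Upp1, which cleaves uridine (2.43 ± 0.38). The lowest were those of Xdh, an enzyme of purine breakdown (-2.51 ± 0.33), Ak1, an adenylate kinase (-1.46 ± 0.42), and Aldh1l2, a mitochondrial formyl-folate dehydrogenase (-1.44 ± 0.47). For Xdh, 4F differed from day 0 by 0.03 ± 0.33 on day 8 and GFP was 2.55 ± 0.33 above it (adjusted p = 0.975 and 6.23e-05). For Aldh1l2, 4F differed from day 0 by -1.53 ± 0.47 (adjusted p = 0.0384). In 3F against GFP, 11 of the 53 were higher and 9 lower (9.47% and 8.82% of all genes), and in 4F against 3F 7 were higher and 3 lower (3.87% and 5.77%).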

How the data were processed

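Total RNA of cultured fibroblasts was labelled with biotin and hybridized to Affymetrix whole-transcript arrays, per the labels' protocols. The authors deposited log2 signals, with 1 row per probe set and 31 arrays. Their normalization and the genome build are not given in the sources used here. Array medians were 6.04 to 6.17, and the values were used as deposited. Rows with a single symbol gave 19938 genes, and the brightest row of a gene was used.

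Groups came from the sample titles, except that the day 0 arrays, titled 4F, were called uninfected from their retrovirus label (none). The groups entered models in limma 3.58.1 (R 4.3.3), with 1 mean per group over all 31 arrays (12 residual degrees of freedom). The 3F comparisons used additive terms for day and arm on the 18 arrays of days 3, 5, 8 and 12. Benjamini-Hochberg adjustment ran over all genes, with a threshold of 0.05. Titles call the numbered arrays biological replicates without naming separate cultures or embryos, so p-values measure the spread between these arrays, which may be partly technical, and their number limits the precision. Replicate numbers mark the RNA input of labelling, and the main fits did not pair arrays by them. Over 66 pairs of groups, replicate differences correlated across genes with r from 0.081 to 0.69, and 65 exceeded 0.1. The main SEs and p-values leave this shared set effect unmodelled. Arrays were paired only in the differences within a set and, through the labelling set as a term, in an alternative fit. Members were named in full, and other pathway genes by the 3 highest and 3 lowest differences called. Members and lists were chosen with earlier results of these data known. The fits were tested on simulated data with independent noise and no labelling-set effect, so that test does not bear on the shared set effect. Alternatives were the labelling set as a term, quantile normalization, the mean of a gene's rows, a low-signal filter, a trended robust prior and leaving out arrays. Those on the 300 ng arrays, without day 12 and the day 12 contrast were added after seeing the data.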

Additional observations from a re-analysis of the deposited data

Results flagged for a closer look

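The difference between 4F and GFP was not the same on day 8 as on day 1 for 12 members, by the test of the change itself in limma (log2, day 8 minus day 1, 2 arrays per arm and day). It grew for Shmt2 (1.60), Ppat (1.45), Mthfd1l (1.44), Dut (1.37), Psat1 (1.37), Mthfd2 (1.37), Prps1 (1.29), Dctpp1 (1.11), Shmt1 (1.03), Gldc (1.00) and Adsl (0.86), and it turned over for Ctps (-1.17).

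The difference of 4F minus 3F was lower on day 12 than on days 3, 5 and 8 for 10 members, in the contrast added after seeing the data (log2, day 12 minus the mean of the 3 earlier days). In all 10 it lay below 0 on day 12 and above 0 before, which follows in part from how the 10 were picked. The day 12 values ran from -1.061 for Tyms to values near 0 for Gart, Shmt1 and Mthfd1 (-0.006, -0.026 and -0.085). The values were -1.58 for Shmt1, -1.42 for Mthfd1, -1.40 for Tyms, -1.23 for Gart, -1.19 for Dut, -1.18 for Adsl, -1.11 for Atic, -1.10 for Nme1, -1.01 for Ppat and -0.83 for Gmps. On day 12 each arm had 1 array, and the labelling set and the day cannot be told apart here.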

How the results depend on the processing

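Counts of members called in 4F against GFP on days 1, 3, 5 and 8, in their mean and in the change between day 1 and day 8 stayed within 1.5 times under the labelling set as a term, quantile normalization, the mean of a gene's rows, the low-signal filter and the trended robust prior. With the replicate block, the labelling set as a term, 2 members passed in 4F on day 1 against day 0 (1 without it). In GFP on day 1 against day 0, 4 passed (0 without it), and in 4F against 3F 0 did (11 without it). The block changed no other count by more than 1.5 times. In the fits of group means the term set replicate 2 apart from all other arrays, so unnumbered arrays shared a level with replicate 1. For the 3F comparisons it held replicate 1, replicate 2 and the unnumbered arrays apart. In that block fit of 4F against 3F the sign turned for Gart (-0.06), Adsl (-0.14), Atic (-0.15), Dctpp1 (-0.024) and Mthfd1 (-0.07). Every 3F array is unnumbered, so 3F then entered the comparison through its day 12 array alone. The GFP array of day 12 and the 4F minus GFP differences of days 3, 5 and 8 also entered. In the block fit of 3F against GFP, 3F also entered through its day 12 array alone, and the members called changed more than their count did. For GFP on day 1 against day 0, 1 member passed under quantile normalization and 1 under the low-signal filter. On the 300 ng arrays alone, 0 passed in 4F against 3F, with fewer arrays in the fit. The contrast of day 12 against earlier days gave 6 under quantile normalization, against 10, and the cause was not tested.

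Leaving out 1 array at a time gave 2 to 8 members for 4F against GFP on day 1, 4 to 7 on day 3, 13 to 17 on day 5, 26 to 29 on day 8, 27 to 29 for the mean and 7 to 11 for day 8 minus day 1. Against day 0 the ranges were 0 to 0 for 4F on day 1, 5 to 7 for 4F on day 8, 0 to 2 for GFP on day 1 and 24 to 26 for GFP on day 8. They were 10 to 12 for 3F against GFP, 0 to 15 for 4F against 3F and 7 to 10 for the day 12 contrast. With 2 arrays per group, a group left with 1 array was taken to vary like the others.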

Other observations

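Some members followed the labelling set as well as the arm. In 4F, replicate 1 (labelled from 120 ng) was above replicate 2 (300 ng) on all 7 replicated days for 13 of the 33 genes, and below it on all 7 days for 1 gene, Paics. The median of replicate 1 minus replicate 2 over these days was 0.78 for Cad, 0.56 for Pfas, 0.44 for Psph, 0.38 for Dctpp1 and 0.34 for Mthfd1, lower for the other 8 of the 13, and -0.28 for Paics. For Cad this is close to the size of its day 8 difference between 4F and GFP (0.95). In GFP, Cad was higher in replicate 1 on all 4 replicated days, with a median of 0.26. These genes were chosen after their values were seen, and no test was run.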
